A study of Homo sapiens with 4 samples.

Results

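The MYC and MAX network is a family of basic helix-loop-helix leucine zipper transcription factors and their close relatives. The 9 genes described here are MYC, MAX, MXI1, MXD1, MXD3, MXD4, MNT, MGA and MLX, taken by gene symbol from the 15562 genes of the RNA-seq table, and all 9 were found. They were measured in H1975, a human lung adenocarcinoma cell line, after 24 h in hypoxia (1% O2, 5% CO2 and 94% N2) and after 24 h in normoxia. The labels give both groups the genotype WT and name no other treatment. Each condition is 1 RNA-seq library, with 18943320 counts in hypoxia and 17643836 counts in normoxia. Without replicates, a difference describes these libraries alone: it carries a 95% interval for counting error, and no p-value for the condition can be computed.

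MYC activates transcription when it pairs with MAX and binds the E-box, a short palindromic DNA element. MAX also pairs with MXD1, MXI1, MXD3, MXD4 and MNT, which bind the same element and bring the SIN3 histone deacetylase complex, so these proteins oppose MYC. MGA is a very large MAX partner that carries an additional T-box domain and takes MAX into a Polycomb complex. MLX is a MAX-like protein that pairs with the glucose-sensing factors MLXIP (MondoA) and MLXIPL (ChREBP) and with some of the MXD proteins. In lung cancer, MYC is known as a growth-promoting oncogene, and hypoxia-inducible factors (HIF) have been described to act against MYC, in part through MXI1, in kidney cancer cells.

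In hypoxia the MYC transcript was lower and those of the antagonists MXI1 and MXD1 were higher, while the antagonist MXD3 was lower. MGA was higher by a smaller amount. The intervals of MAX, MLX, MNT and MXD4 included no difference. Each of the 9 genes had over 100 counts in both libraries and passed the filter of 1 CPM (a count scaled to the library total) in at least 1 library.

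Sequences in front of the genes are shown for MXI1, the member with the highest ratio, and for the members whose promoter window holds the E-box that the network itself binds. No promoter window was available for MYC, which was therefore not searched. For the other 8 of the 9 members, 13 windows of 300 bases were available, with 250 bases before and 50 after an annotated start (RefSeq, GRCh38.p14). They were searched on both strands for the E-box, CACGTG, and for the core of the HIF response element in either of its forms, which are ACGTG and, with a different first base, GCGTG. The first form of the core lies inside every E-box, and such matches were counted as E-boxes alone. The 250 bases before the second annotated start of MXI1 (chr10:110209981-110210230, plus strand) hold GCGTG 127 bases before the start and CACGT, which is ACGTG on the other strand, 113 bases before it. Capitals mark these motifs.
MXI1: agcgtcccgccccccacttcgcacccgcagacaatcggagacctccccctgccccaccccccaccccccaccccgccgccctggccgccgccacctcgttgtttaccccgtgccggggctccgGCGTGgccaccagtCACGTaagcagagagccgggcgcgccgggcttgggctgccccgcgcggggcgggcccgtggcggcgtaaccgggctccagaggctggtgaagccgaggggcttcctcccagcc

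The windows of MXD4, MNT and MLX each hold 1 E-box, which starts 238, 193 and 50 bases before the start. The stretches below, 5′ to 3′ on the strand of each gene, are chr4:2262330-2262359 (minus strand), chr17:2401236-2401265 (minus strand) and chr17:42567038-42567067 (plus strand), with the E-box, and for MLX also a HIF core (CACGC, the other strand of GCGTG), in capitals.
MXD4: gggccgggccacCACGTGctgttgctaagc
MNT: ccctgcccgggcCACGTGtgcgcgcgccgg
MLX: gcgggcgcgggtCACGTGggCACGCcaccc
These 3 members were among the 4 whose interval included no difference. The E-box was in 3 of 13 windows of the members and in 7.26% of 35116 windows of all genes. A HIF core outside an E-box was in 8 of 13 windows, from 5 members, and in 45.4% of the same 35116 windows. MGA, which was higher in hypoxia, holds 1, 2 and 3 HIF cores in its windows. The window of MXD1, also higher, holds neither motif, and that of MXD3, which was lower, holds 2 HIF cores. Of the members whose interval included no difference, MAX and MLX hold 1 HIF core each, and MXD4 and MNT none outside the E-box. A relation of the matches to the direction of the members was not tested. Of the 3 MXI1 windows, the one at the first annotated start (chr10:110207355-110207654) holds neither motif and the other two hold 2 HIF cores each. A match describes letters in a window and says nothing of binding in these cells.

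MYC was by far the most abundant transcript of the network. Its level was 197 FPKM in hypoxia (exact Poisson 95% interval 194 to 200.1) and 244 FPKM in normoxia (241 to 248). By FPKM, which is scaled to gene length and library total, MYC ranked 274th of the 15562 genes in hypoxia and 209th in normoxia. MXD4 came next, with 36.1 FPKM in hypoxia and 35.1 in normoxia, so that MYC stood 5.46 times above it in hypoxia (5.24 to 5.69) and 6.97 times above it in normoxia (6.68 to 7.27). MLX followed at 29.1 FPKM in hypoxia and 27.7 in normoxia, and MAX, the shared partner, at 25.2 FPKM in hypoxia and 24.3 in normoxia. The order below MAX differed between the libraries. MXI1 had 13.7 FPKM and MXD3 9.38 FPKM in hypoxia, a ratio of 1.46 (1.31 to 1.63). In normoxia MXD3, at 12.3 FPKM, stood above MXI1, at 9.66 FPKM, by a ratio of 1.28 (1.14 to 1.43). These antagonists thus changed places. MNT (7.92 FPKM in hypoxia, 7.88 in normoxia), MGA (6.32 FPKM in hypoxia, 5.45 in normoxia) and MXD1 (3.83 FPKM in hypoxia, 2.81 in normoxia) were the lowest in both libraries. Every neighbouring pair in either order differed beyond counting error, the closest being MLX over MAX in normoxia at 1.14 (1.05 to 1.24).

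**Figure D1:**
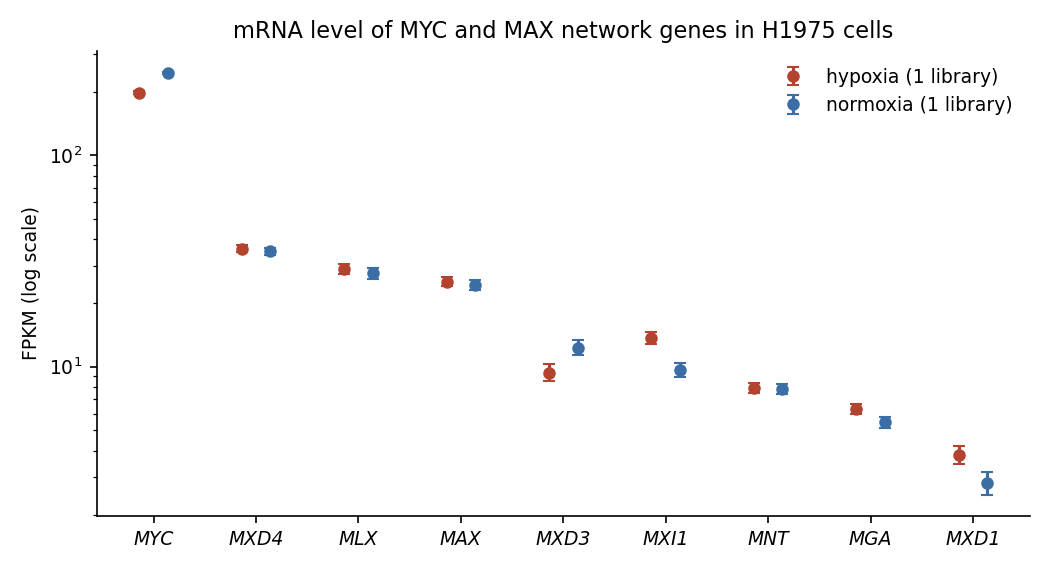
mRNA level of the 9 genes in FPKM on a log axis, with hypoxia left of normoxia for each gene, 1 library per condition and exact Poisson 95% intervals of the count as bars. MYC lies far above the other genes at 197 FPKM in hypoxia and 244 FPKM in normoxia, and MXI1 and MXD3 exchange their order between the libraries.

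Differences between the conditions were next taken from counts after TMM scaling (trimmed mean of M values). MYC had 16870 counts in hypoxia against 19467 in normoxia. Its log2 ratio was -0.30 (95% counting interval -0.33 to -0.27), which is 1.23-fold lower in hypoxia. The interval is narrow because MYC is so deeply counted. In RNA from a whole culture, fewer cells that express a gene and less of its RNA per cell cannot be told apart. When the 4241 genes counted at least 1000 times in each library were ranked, MYC had the 33rd lowest ratio, and 0.755% of these genes had a lower one. In all such genes, a subset chosen after seeing the data, the central 95% of log2 ratios ran from -0.22 to 0.24. MYC lay below that range. Among the 10739 genes with at least 100 counts in each library, 3.32% had a lower ratio than MYC. The central 95% of those genes ran from -0.33 to 0.33, and MYC lay inside it.

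The antagonist with the highest ratio was MXI1 (Entrez 4601, GRCh38.p14 chr10:110207605-110287365), which had 996 counts in hypoxia and 655 in normoxia. The log2 ratio of 0.51 (0.37 to 0.65) is a ratio of 1.42. At least 100 counts in each library were held by 10739 genes, and 0.475% of them had a higher ratio than MXI1. MXD1 (Entrez 4084, chr2:69915109-69942945), an antagonist known to accumulate as cells differentiate, had 403 counts in hypoxia and 275 in normoxia. The log2 ratio of 0.46 (0.23 to 0.68) is a ratio of 1.37, and 0.773% of genes with 100 or more counts lay above it. Both genes were above the central 95% of those genes, which ran from -0.33 to 0.33.

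MXD3 (Entrez 83463, chr5:177305499-177312752), a family member whose mouse counterpart is known from cells in S phase, differed in the other direction. It had 491 counts in hypoxia against 601 in normoxia. Its log2 ratio was -0.39 (-0.56 to -0.21), which is 1.31-fold lower in hypoxia. Of the genes with 100 or more counts, 1.5% had a lower ratio. Its annotated span shares 1451 bases with PRELID1, whose log2 ratio was -0.04 (-0.11 to 0.03) with 3736 counts in hypoxia against 3594 in normoxia, and its value is uncertain to the extent that reads there could be assigned to either gene. The sources used here do not say if strand was used in the counting. The 4 MXD family genes therefore did not share a direction: 2 were higher, 1 was lower and the interval of MXD4, the most abundant, was -0.03 to 0.13, with 2649 counts in hypoxia against 2394 in normoxia.

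MGA (Entrez 23269, chr15:41621224-41769940) had 1439 counts in hypoxia against 1156 in normoxia. Its log2 ratio of 0.22 (0.11 to 0.33) lay inside the central 95% of genes. MGA has the longest transcript model of the 9, with 12011 bases implied by the FPKM, and longer genes had slightly higher ratios in these libraries. When that trend was taken out, which was decided with the data in view, its log2 ratio was 0.15 (0.04 to 0.27). MNT, the broadly expressed antagonist, had 1378 counts in hypoxia and 1276 in normoxia and a log2 ratio of 0.02 (-0.10 to 0.13). MAX had 1519 counts in hypoxia against 1362 in normoxia, with a log2 ratio of 0.06 (-0.04 to 0.17). MLX had 1299 counts in hypoxia against 1153 in normoxia, with a log2 ratio of 0.08 (-0.04 to 0.19). For MAX, MNT, MXD4 and MLX no difference was detectable with these counts, and their intervals reach no further than a ratio of 1.14 upwards (MLX) and 0.936 downwards (MNT). MAX, MXD1 and MLX share part of their spans with FNTB, ASPRV1 and PSMC3IP, in that order. FNTB and ASPRV1 had 15 and 21 counts in hypoxia and 17 and 18 in normoxia, while PSMC3IP had 346 in hypoxia and 341 in normoxia.

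**Figure D2:**
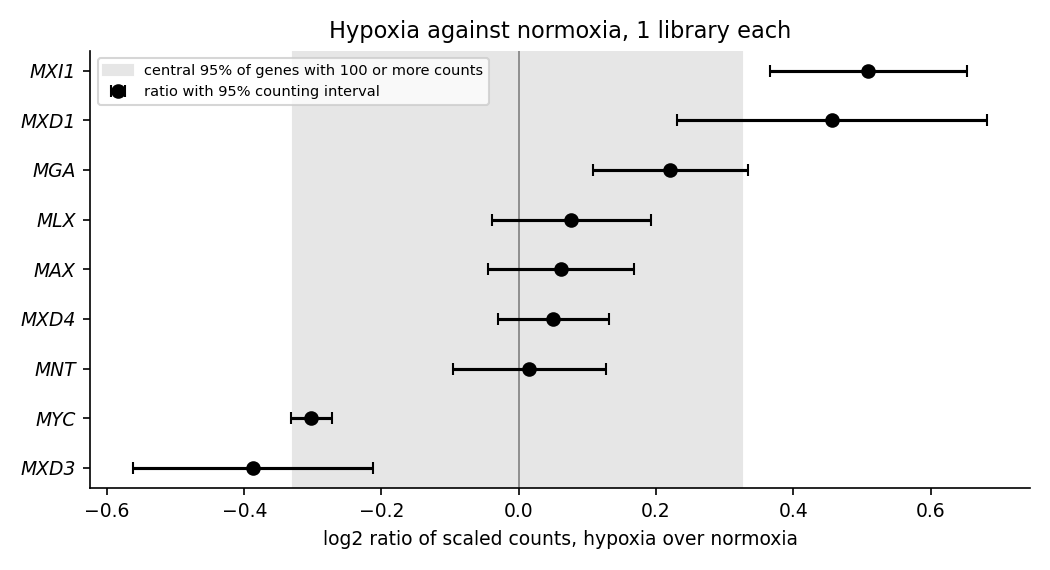
Log2 ratio of TMM-scaled counts, hypoxia over normoxia, for the 9 genes, with the 95% counting interval as bars and the central 95% of genes with at least 100 counts in each library as the grey band (-0.33 to 0.33). MXI1 and MXD1 lie above the band, MXD3 below it, and MYC inside its lower edge at -0.30.

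Of the 9 genes, 3 had an interval wholly above 0 and 2 wholly below. Of the 12725 genes past the filter, 14.5% lay wholly above and 14.4% wholly below. These shares rise with depth. Of the 4241 genes with at least 1000 counts in each library, 21.1% lay above and 21.7% below. MYC, MAX, MXD4, MNT, MGA and MLX reach that depth. With a difference of 1.2-fold also required, a size chosen after seeing the data, 2 genes (MXI1 and MXD1) were higher and 2 (MYC and MXD3) lower, against 4.75% and 4.71% of all genes. At 1.5-fold the members gave 0 in either direction, against 1.19% of genes higher and 1.13% lower. The median log2 ratio of the 9 genes was 0.06 and that of all genes 0.00050. No single shift describes the network: its ratios ran from -0.39 to 0.51.

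Because MYC and its antagonists compete for MAX, ratios between members within a library were compared, which need no scaling between libraries. In all, 16 such ratios were computed, all with exact conditional intervals that cover counting error only. MYC stood 14.4 times above MXI1 per length in hypoxia and 25.3 times above it in normoxia. The ratio of MXI1 to MYC was thus 1.75 times as high in hypoxia (1.58 to 1.94). MYC stood 51.4 times above MXD1 in hypoxia and 86.9 times in normoxia, and the MXD1 to MYC ratio was 1.69 times as high in hypoxia (1.44 to 1.98). The MGA to MYC ratio was 1.44 times as high in hypoxia (1.32 to 1.56). For MNT, MXD4, MAX and MLX, whose own ratios were near 1, the log2 ratio to MYC was 0.32 to 0.38 higher in hypoxia. The 4 values were alike, and none of these genes had a detectable difference of its own. MXD3 and MYC were lower by like amounts, and their ratio was 0.943 (0.834 to 1.07) in hypoxia relative to normoxia.

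Set against MAX instead, MYC transcripts were 7.82 times those of MAX per length in hypoxia and 10.1 times in normoxia. MXI1 was 0.543 times MAX in hypoxia and 0.398 times MAX in normoxia, so its log2 ratio to MAX was 0.45 higher in hypoxia (0.27 to 0.63). MXD1 to MAX was 1.31 times as high (1.11 to 1.56) and MXD3 to MAX 0.733 times (0.635 to 0.845). MXD4, MNT and MLX kept ratios to MAX whose intervals included 1. For MGA the ratio was 1.12 (1.00 to 1.24), an interval that only just excluded 1. Ratios within a library keep the trend with gene length, which was 0.066 in log2 for MGA and -0.010 for MAX. That trend was not removed from these ratios. For MGA it was larger than the lower bound of the log2 ratio to MAX, 0.0028, so the exclusion of 1 rests on leaving it in. All of them are ratios of transcripts, and the amounts of protein were not measured.

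**Figure D3:**
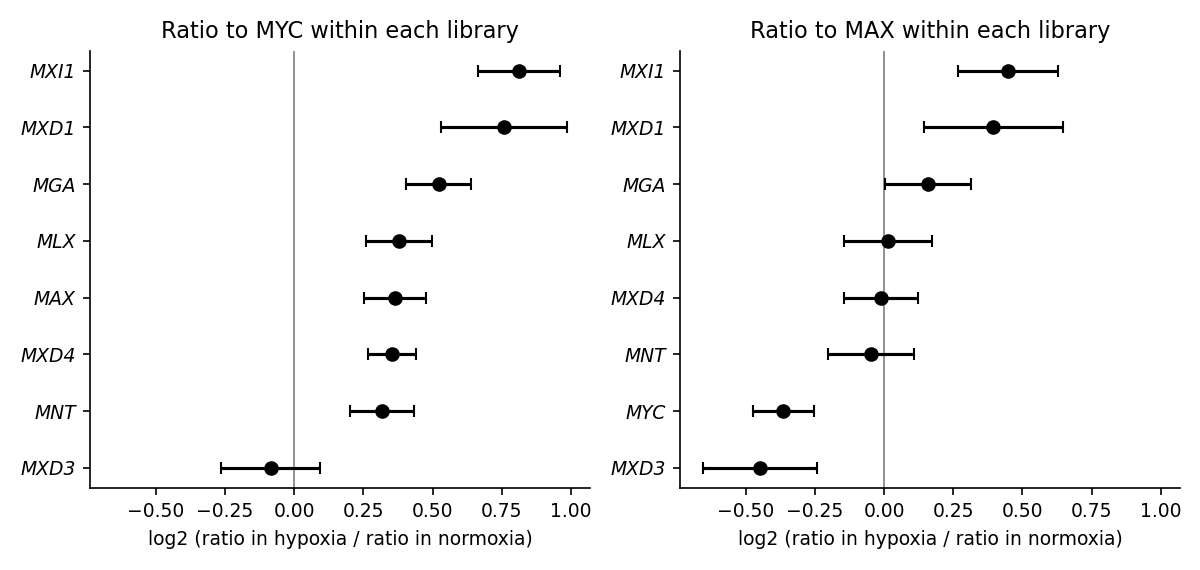
Log2 of the ratio of each gene to MYC (left panel) and to MAX (right panel) in hypoxia over the same ratio in normoxia, with exact conditional 95% intervals as bars. Relative to MYC each gene except MXD3 is higher in hypoxia. Relative to MAX, MXI1 and MXD1 are higher and MYC and MXD3 are lower, and the MGA interval only just excludes 0 (0.0028 to 0.31). The trend with gene length is not removed.

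Summed over the 9 genes, the network held 329 FPKM in hypoxia and 369 FPKM in normoxia. MYC made up 60.0% of that sum in hypoxia and 66.1% in normoxia. The MXD family (MXD1, MXI1, MXD3 and MXD4) together held 63.0 FPKM in hypoxia and 59.8 in normoxia, and MXD4 gave the largest part of it in both libraries. MYC stood 3.13 times above the summed MXD family in hypoxia and 4.08 times in normoxia. In the sum, the higher MXI1 and MXD1 were partly offset by the lower MXD3, and the family sum in hypoxia was 1.05 times that in normoxia, where the MYC level was 0.807 times.

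The same comparison was made for the relatives that complete the network. MYCL, the paralog known for its amplification in small cell lung cancer, was barely present, at 0.642 FPKM in hypoxia and 0.795 FPKM in normoxia, and its log2 ratio was -0.30 (-0.83 to 0.22). MLXIP (MondoA), the more abundant of the MLX partners here, was at 17.7 FPKM in hypoxia and 17.0 in normoxia, with a log2 ratio of 0.07 (-0.01 to 0.15). MLXIPL (ChREBP) had 185 counts in hypoxia and 259 in normoxia and a log2 ratio of -0.58 (-0.86 to -0.30) and thus a point estimate farther from 0 than that of any of the 9 members. MYCN was not analysed here. Of 4 targets of MondoA and ChREBP past the filter, TXNIP, an inhibitor of glucose uptake, had an interval above 0 at 0.08 (0.04 to 0.12). KLF10, ARRDC4 and G6PC3 were at -0.09, -0.09 and -0.04 with intervals that included 0.

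Cofactors of MYC and of its antagonists differed by little. Their counts are to be read against all genes past the filter, of which 14.5% had an interval above 0 and 14.4% below, and against genes with at least 1000 counts in each library, of which 21.1% lay above and 21.7% below. Of 15 genes of MYC coactivator complexes, 5 (33.3%) had an interval above 0 and 4 (26.7%) below, with a median log2 ratio of -0.01. The acetyltransferase EP300 was highest at 0.20 (0.11 to 0.29), with CCNT1 at 0.14 (-0.03 to 0.31), while the elongation kinase CDK9 was at -0.13 (-0.24 to -0.02) and DMAP1 at -0.13 (-0.33 to 0.07). Of 18 genes of the SIN3 and NCOR corepressors, through which the antagonists silence genes, 2 (11.1%) were above 0 and 0 below, with a median of 0.04, and the share above was lower than in either set of all genes. NCOR1 was at 0.16 (0.08 to 0.23) and SIN3A at 0.11 (-0.00077 to 0.22), and HDAC3 and BRMS1 were lowest at -0.08 and -0.07, both with intervals that included 0. In the Polycomb complex that MGA joins, 1 of 15 genes (6.67%) was above 0 and 3 (20%) below. L3MBTL2, a reader subunit of it, was at 0.16 (0.04 to 0.29) and YAF2 at 0.14 (-0.07 to 0.35), whereas the E2F partner TFDP1 was at -0.18 (-0.28 to -0.07) and PCGF6, the subunit that defines this complex, at -0.18 (-0.41 to 0.05). Of 18 genes that control the stability of the MYC protein, 4 (22.2%) were above 0 and 3 (16.7%) below, near the shares of deeply counted genes. The deubiquitinase USP28 was at 0.22 (0.11 to 0.33) and the phosphatase subunit PPP2R5A at 0.19 (0.07 to 0.32), while the ubiquitin ligase subunit FBXL14 was at -0.19 (-0.51 to 0.12). None of the genes in these 4 lists reached 1.5-fold.

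Known targets of MYC were counted in the same way. Over the 65 genes past the filter in the 3 lists of MYC-activated targets, 18 (27.7%) had an interval below 0 and 8 (12.3%) above, and the median log2 ratio was -0.04. Of these genes 47 had at least 1000 counts in each library, a depth at which 21.7% of all genes lay below and 21.1% above. Nucleolar targets, which build ribosomes, had 4 of 26 below and 1 above, with a median of -0.02. The ribosome assembly factors BOP1 and NOP56 were lowest at -0.18 (-0.26 to -0.09) and -0.17 (-0.22 to -0.12), and the RNA polymerase I subunits POLR1G and POLR1B highest at 0.26 (-0.06 to 0.58) and 0.10 (-0.03 to 0.22). Growth and metabolism targets had 11 of 27 below and 5 above, with a median of -0.05. The mitochondrial chaperonin HSPE1 was at -0.36 (-0.54 to -0.19) and the nucleoside diphosphate kinase NME1 at -0.33 (-0.49 to -0.17). LDHA, which makes lactate and is also a HIF target, was at 0.24 (0.22 to 0.26) and the amino acid transporter SLC7A5 at 0.15 (0.08 to 0.21). Cell cycle targets had 3 of 12 below and 2 above. Among the E2F factors, which drive entry into S phase, E2F2 was at -0.60 (-0.97 to -0.23) and E2F1 at -0.48 (-0.61 to -0.35), whereas E2F3 was at 0.21 (0.04 to 0.39), and the kinase subunit CKS1B was at 0.10 (0.01 to 0.19).

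Genes known to be repressed by MYC lay on both sides of 0. Of 14, 5 (35.7%) had an interval above 0 and 3 (21.4%) below, with a median of 0.02, against 14.5% above and 14.4% below among all genes and 21.1% and 21.7% among those with at least 1000 counts in each library. The highest, NDRG1, had 5214 counts in hypoxia against 1958 in normoxia, with a log2 ratio of 1.32 (1.24 to 1.39), and it is a HIF target too. FOXO3, a stress-responsive transcription factor that induces MXI1, was at 0.33 (0.21 to 0.44). GADD45A was at -0.19 (-0.33 to -0.05) and BTG2, with 29 counts in hypoxia against 41 in normoxia, at -0.59 (-1.33 to 0.13). Of 20 HIF targets, set beside these, 18 (90%) had an interval above 0 and 8 reached 1.5-fold, with a median of 0.43. The list was chosen with earlier results of these data known, so it is no independent check of the treatment label. ANKRD37 stood behind NDRG1 at 0.98, with a lower bound of 0.47, and P4HA2 and ADM were lowest at 0.00 (-0.10 to 0.11) and 0.26 (-0.10 to 0.62). The log2 ratios of MXI1, 0.51, and MXD1, 0.46, both lay above the HIF target median. Whether HIF acts on either gene in these cells was not tested.

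**Figure D4:**
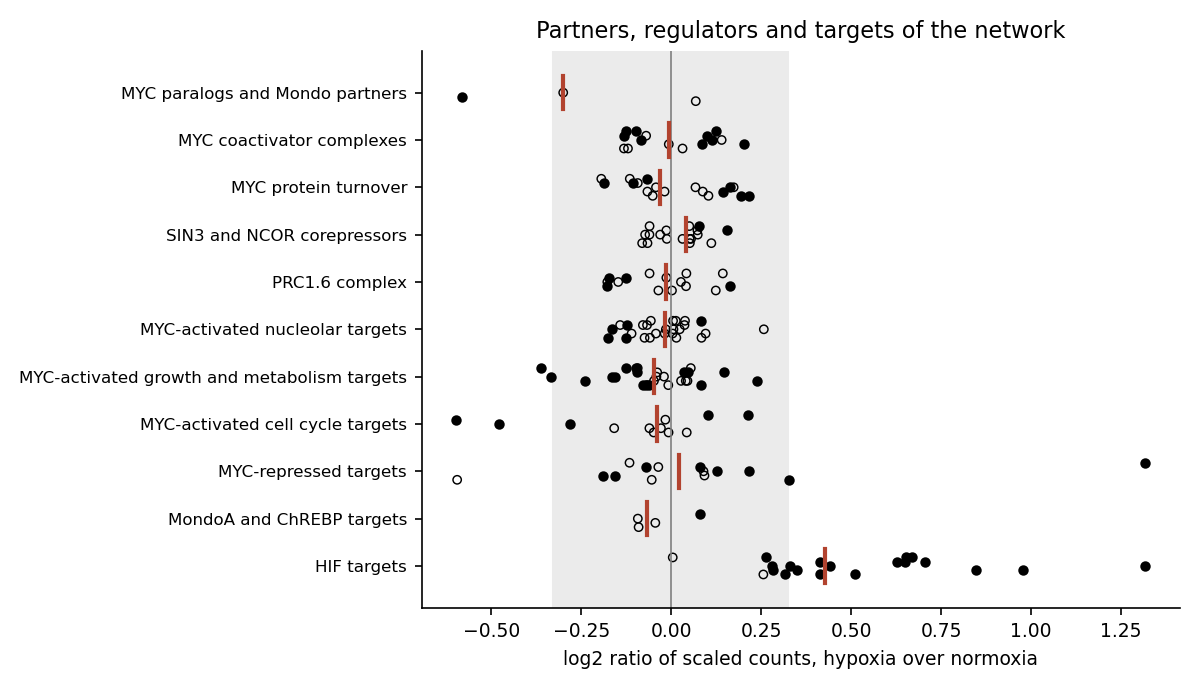
Log2 ratio of TMM-scaled counts, hypoxia over normoxia, for each gene past the filter in the 11 lists, with filled points where the 95% counting interval excludes 0, red lines at the list medians and the central 95% of genes with 100 or more counts as the grey band (-0.33 to 0.33). The medians of the 3 lists of MYC-activated targets lie between -0.05 and -0.02, while the HIF target median is 0.43.

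The label of a lung adenocarcinoma line was checked against markers. The 10 lung epithelial markers summed to 4889 FPKM in hypoxia and 5378 in normoxia, mostly keratins. NKX2-1 was at 34.8 FPKM in hypoxia and 32.3 in normoxia, and NAPSA at 3.66 in hypoxia and 3.34 in normoxia. SFTPB, a surfactant gene, was nearly absent with 14 counts in both. Of the 9 markers past the filter, 5 (55.6%) had an interval below 0 and 1 (11.1%) above. Among all genes past the filter 14.4% lay below and 14.5% above, and among those with at least 1000 counts in each library 21.7% and 21.1%. KRT7 was lowest at -0.43 (-0.45 to -0.40). KRT8, KRT18, KRT19 and CLDN4 lay between -0.13 and -0.08, and are so deeply counted that small differences exclude 0. The marker above 0 was NKX2-1 at 0.11 (0.01 to 0.22). Of the markers of other cells, endothelial VWF and leukocyte PTPRC had 2 counts in hypoxia against 0 in normoxia, where 0 allows up to 3 counts. The 3 endothelial markers in the table summed to 1.03 FPKM in hypoxia and 1.19 in normoxia, 4 leukocyte markers to 139.7 FPKM in hypoxia and 143.6 in normoxia (mostly CD68), with CD14 at a log2 ratio of -0.45 (-0.66 to -0.23), and 6 fibroblast markers to 20.4 FPKM in hypoxia and 19.9 in normoxia (mostly COL1A1). The part of these marker differences in the lower MYC was not tested.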

How the data were processed

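RNA-seq read counts per gene and FPKM were used as the authors deposited them, with 1 library per condition. Per the labels' protocols, total RNA was taken with TRIzol and libraries were made with a stranded mRNA kit. The build GRCh38 and the tools HISAT2, HTSeq, Cufflinks, Trimmomatic and Bowtie appear in the submitters' processing notes without roles or versions. The deposited FPKM equal the deposited counts divided by the table total and a gene length, a length that came out whole to 0.01 bases for 100% of the genes counted in hypoxia. The miRNA libraries were not used here.

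Counts were scaled with TMM in edgeR 4.0.16 under R 4.3.3, after a filter at a CPM of 1 in at least 1 library (12725 genes). The normalization factors were 0.998 in hypoxia and 1.00 in normoxia. Ratios carry exact conditional (Clopper-Pearson) 95% intervals, computed in Python 3.11.15 with scipy 1.17.1, and within-library ratios carry exact conditional odds ratio intervals. Intervals cover counting error only, since no molecular identifiers separate molecules from their copies, and the spread between cultures is unknown. The interval procedure was run on simulated counts drawn with counting error (Poisson) alone. That run cannot show how the intervals hold with copied molecules or a spread between cultures. The members and the lists were chosen with earlier results of these data known. Named genes were all members, the MYC paralogs and Mondo partners, and the 2 highest and 2 lowest genes of each list, of which 1 is not reported here. Gene coordinates and promoter windows are from RefSeq (GRCh38.p14), matched by Entrez identifier. PHB1 was matched in the same way.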

Additional observations from a re-analysis of the deposited data

How the results depend on the processing

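No paired analysis was possible because each condition has 1 library, and for the same reason no library could be left out. Scaling was repeated with DESeq2 1.42.0 size factors, total counts or upper quartile, and FPKM (pseudocount 1 or 0.1) were used instead. The filter was dropped or raised to 5 CPM, and the length trend was removed. Each setting left the members' ratios within their main intervals. List medians stayed within the median bounds of their genes, which are wide, so a median can change sign inside them. The MYC-repressed median was 0.02, and 0.08 with the filter at 5 CPM. The coactivator median was -0.01, and 0.01 with the length trend removed. The growth and metabolism median was -0.05, and -0.02 with that trend removed. The HIF target median was 0.43, and 0.39 from FPKM with a pseudocount of 1. The log2 ratio ran from -0.31 to -0.30 for MYC, 0.46 to 0.51 for MXI1, 0.34 to 0.46 for MXD1, -0.39 to -0.36 for MXD3 and 0.15 to 0.22 for MGA. Their intervals excluded 0 in each of the 7 settings that give an interval. The ratio of MNT, whose interval included 0, ran from -0.03 (length trend removed) to 0.02. Ratios within a library from FPKM plus 1, and levels from TMM-scaled CPM per length, also stayed within their intervals. With 99% intervals 3 members were still above 0 and 2 below. FPKM with a pseudocount gives no interval and hence no such count. The length trend, the 1.2-fold size and the subset of genes with 1000 or more counts were chosen after seeing the data. Depth limits a difference in MXD1, the member with the fewest counts, most.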
